A study of Homo sapiens with 6 samples.

Results

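The Wnt and β-catenin pathway was examined through 49 genes in RNA-seq of NCI-H660 (H660) cells, which were derived from a neuroendocrine prostate cancer (NEPC). The members were chosen by symbol, and all 49 were found among the 28008 gene symbols of the count table. They comprised 41 core components, which are ligands, receptors, signaling proteins, nuclear factors and inhibitors, and 8 feedback targets, which were considered apart. In both groups the cells harbored a vector from which a short hairpin RNA (shRNA) targeting MUC1 is expressed upon tetracycline induction. DOX-negative cells received 0.1% DMSO as vehicle (n = 3), and DOX-positive cells received 500 ng/ml doxycycline (DOX), which switches on the shRNA (n = 3). The comparison addressed which Wnt pathway transcripts differ when MUC1-C, the membrane-spanning part of the MUC1 mucin, is silenced. A single MUC1 shRNA was used, and no cells without that shRNA received DOX, so effects of DOX itself and of MUC1 silencing cannot be told apart.

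Wnt ligands are lipidated by PORCN, carried to the cell surface by WLS and bound there by a frizzled receptor together with LRP5 or LRP6. Without a ligand, a destruction complex of AXIN1, APC, GSK3B and CSNK1A1 marks β-catenin, the protein encoded by CTNNB1, for degradation. Ligand binding recruits dishevelled proteins, the complex is inhibited, and β-catenin enters the nucleus, where it partners with TCF/LEF factors, BCL9 and PYGO2 to switch on target genes. Several of these targets dampen the pathway in turn, and their transcripts are widely used as a readout of its activity. Control of β-catenin is largely through protein stability, which RNA-seq does not measure.

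Total counts ranged from 47620696 to 74061121 per library. The labels name an mRNA kit, yet 6 abundant, largely non-polyadenylated RNAs, among them RN7SK and RN7SL2, held 12.01 to 14.4% of counts in DOX-negative and 11.3 to 17.2% in DOX-positive libraries. The library type is therefore uncertain, and CPM and TPM include these RNAs in their totals. In CPM, which are counts scaled to a common library size, MUC1 was at 88.2, 90.2 and 79.6 without DOX and at 36.7, 37.2 and 29.9 with DOX. The targeted transcript thus lay below every DOX-negative library in each DOX-positive one and fell by 1.32 on the log2 scale (SE 0.096, adjusted p = 0.00017). The 8 neuroendocrine and 4 epithelial markers examined were expressed, including CHGA, SYP, NCAM1, EPCAM and KRT8. KLK3, a marker of luminal prostate cells, had 0 counts in every library. In DOX-positive libraries NCAM1 and INSM1 fell, with log2 fold changes of -0.50 and -0.45 (adjusted p = 0.014 and 0.039). The other 6 neuroendocrine markers were not called, with log2 fold changes from -0.20 for CHGA to 0.29 for CHGB, whose groups were apart (adjusted p = 0.17). The summed neuroendocrine markers were 895 to 1007 CPM in DOX-negative and 800 to 890 CPM in DOX-positive libraries. Of 6 fibroblast markers, COL1A1 and LUM rose while COL3A1 had 0 counts, DCN and PDGFRB had 4 and 3 counts in all, and COL1A2, at 14.6 to 21.5 CPM without and 6.81 to 13.9 CPM with DOX, was not called (-0.71, adjusted p = 0.20). Their sum was 25.1 to 30.6 CPM without and 23.4 to 27.9 CPM with DOX. Of 4 endothelial and immune markers, CDH5 and CD68 rose and PTPRC had 1 count in all. PECAM1, also on this list, had 20 counts in all and was not tested. Its mean was 0.072 CPM without and 0.042 CPM with DOX. The sum of the 4 markers was 3.15 to 4.01 CPM without and 5.49 to 7.15 CPM with DOX. The part of these shifts in the results that follow was not tested. In bulk RNA, fewer cells that express a gene and less of its RNA per cell cannot be told apart.

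Analysis of transcript levels per gene length showed which version of each pathway component H660 cells expressed. By mean TPM, in which counts are divided by gene length before scaling, over the 6 libraries, 9 members were at 10 TPM or more, 20 at 1 to 10 TPM, 15 at 0.1 to 1 TPM and 5 below 0.1 TPM. CTNNB1 was the most abundant member at 75.1 TPM. CSNK1A1, the casein kinase that primes β-catenin for degradation, followed at 35.9 TPM, SFRP5, a secreted inhibitor that binds Wnt ligands, at 32.2 TPM, and WLS at 29.8 TPM. DVL2 at 28.97 TPM was the most abundant dishevelled gene, and GSK3B, the kinase of the destruction complex, was at 17.9 TPM. The axin scaffold AXIN1 was at 8.70 TPM, and the scaffold encoded by APC was at 1.47 TPM.

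**Figure D1:**
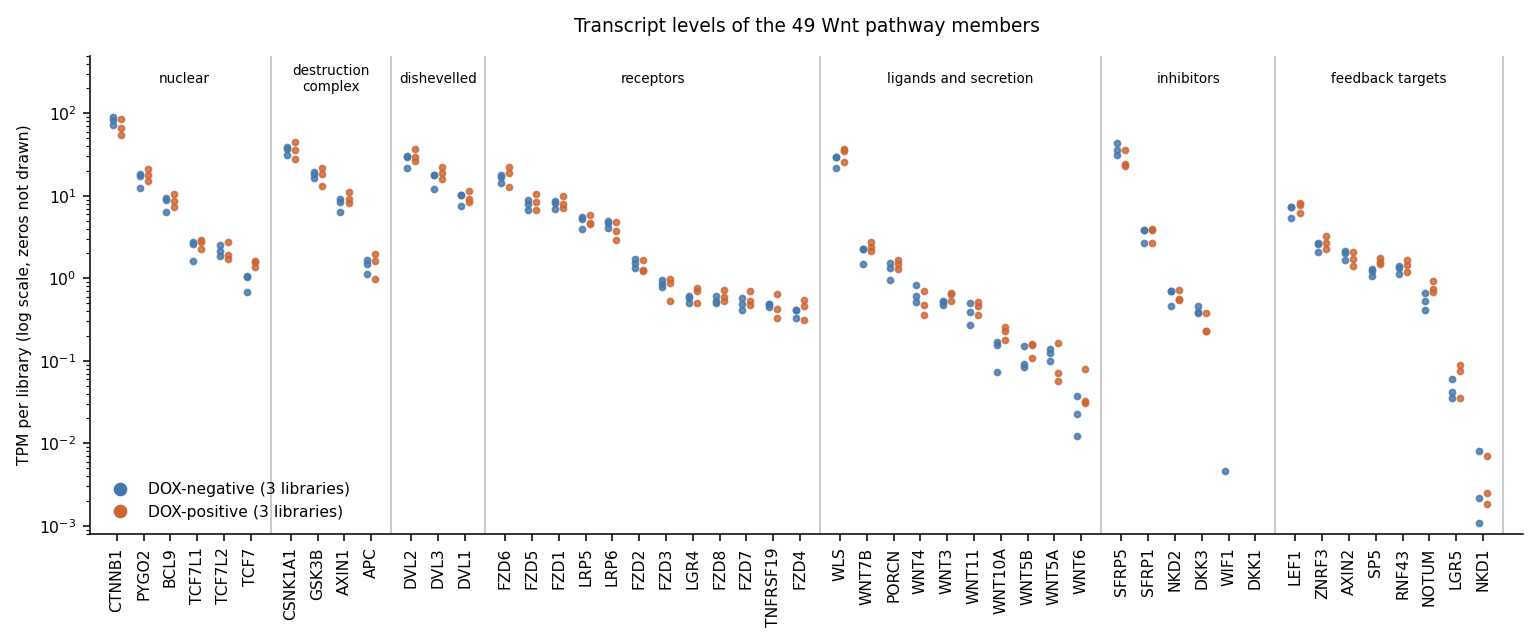
Levels of the 49 members in TPM (log axis, zeros not drawn) by role, with one point per library (blue, DOX-negative; orange, DOX-positive; 3 libraries each). CTNNB1 stands highest at a mean of 75.1 TPM, and DKK1, which has 0 counts, has no point.

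Next, gene families were resolved into their members as shares of the family's summed TPM within each library. Such shares are free of the library's TPM scale, which differed between libraries. For the same genes, TPM relative to normalized CPM was between 0.824 and 1.24 times the average over libraries, so that values in TPM from different libraries carried this spread. Among TCF/LEF factors, which place β-catenin on DNA, LEF1 made up 55.1 ± 1.45% in DOX-negative and 54.1 ± 1.33% in DOX-positive libraries (SD, n = 3). TCF7L1 made up 19.0 ± 1.61% and 19.3 ± 0.346%, and TCF7L2 18.2 ± 1.64% and 15.4 ± 1.96%, with overlapping groups for both. TCF7 was the smallest component, at 7.96, 7.92 and 7.20% without DOX and 10.4, 11.98 and 11.2% with DOX. Every DOX-positive library thus held a larger TCF7 share than every DOX-negative library. The exact two-sided permutation p was 0.10, the smallest that 3 against 3 libraries can give. Such separation was not particular to TCF7. In their own families, shares of FZD2, FZD3, LRP6, WNT9A and SFRP5, among others, were also apart at this p, whereas those of LEF1 overlapped.

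Frizzled transcripts, which encode the Wnt-binding receptors, were mostly FZD6, at 44.8 ± 0.546% without and 45.4 ± 2.85% with DOX. FZD1 at 21.5 ± 0.289% and FZD5 at 21.5 ± 0.419% made up most of the remainder in DOX-negative libraries. FZD2, FZD3, FZD4, FZD7 and FZD8 each contributed between 1.048 and 4.17% there. LRP5 and LRP6 were present in similar amounts. LRP6 made up 47.3, 47.3 and 51.0% of the pair without DOX and 45.5, 38.9 and 44.5% with DOX, so its share was lower in each DOX-positive library. Among 19 Wnt ligand genes, WNT9A, which was not a member, supplied 51.9 ± 1.38% without DOX and 49.2 ± 0.668% with DOX. Of the members, WNT7B was the leading ligand at 21.7 ± 1.88% and 24.5 ± 1.13%, with overlapping groups. SFRP5 supplied 90.1 ± 0.823% of the secreted frizzled-related inhibitors without DOX and 87.2 ± 2.01% with DOX, and SFRP1 supplied most of the rest.

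**Figure D2:**
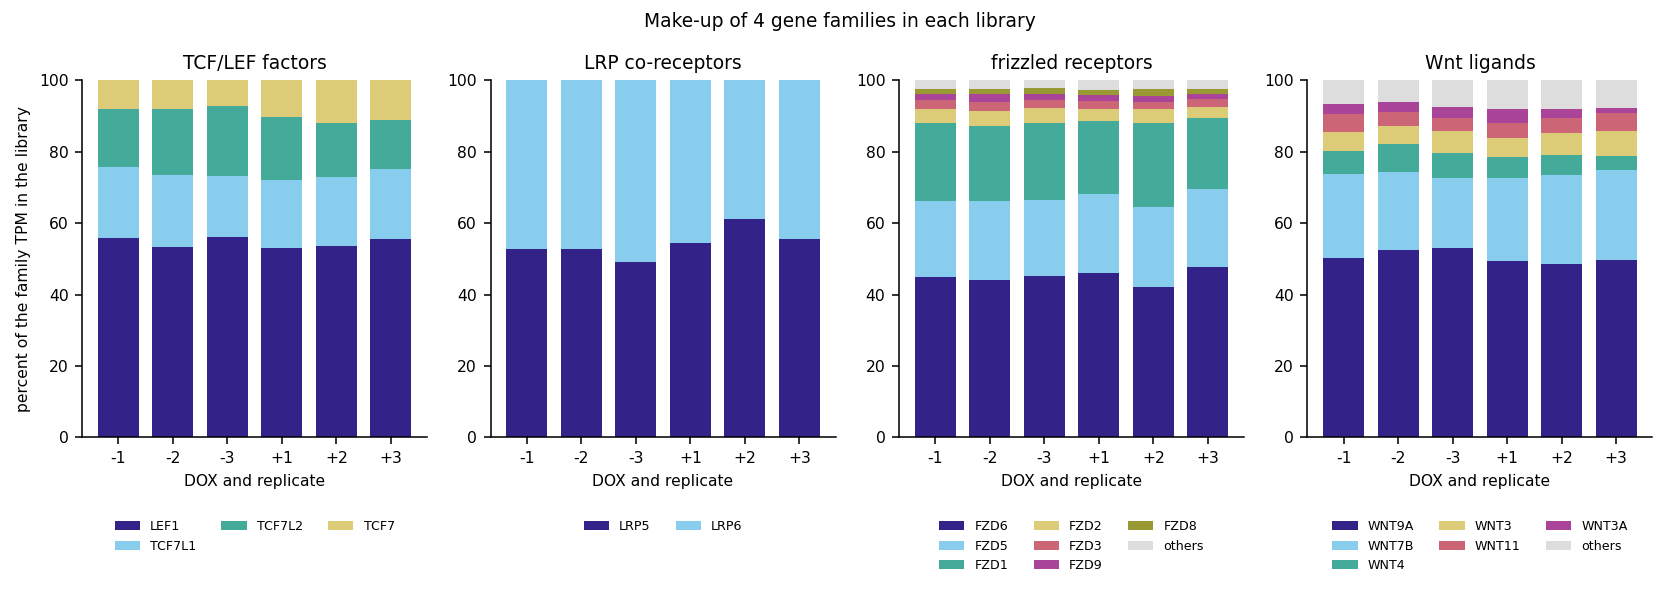
Stacked bars give each gene's percent of its family's summed TPM in each library (minus, DOX-negative; plus, DOX-positive; replicates 1 to 3). LEF1, FZD6 and WNT9A lead their families in all 6 libraries, and the TCF7 band widens from 7.20 to 7.96% without DOX to 10.4 to 11.98% with DOX.

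Differences between the groups were tested for 17026 genes, and 829 of them (4.87%) were called at an adjusted p under 0.05, of which 496 (2.91% of all tested) were higher and 333 (1.96%) lower in DOX-positive cells. Of the 49 members, 45 had enough counts to be tested. Of those 45, 4 (8.89%) were called, with TCF7 higher and CTNNB1, LRP6 and SFRP5 lower in DOX-positive cells. All 4 were core components, and 0 of the 7 tested feedback targets were called. Limma-voom called 4 members and DESeq2 called 5, the same 4 and DKK3, so that neither called a feedback target. The count rested on single libraries. It was 2, 1 and 0 without DOX-negative replicates 1, 2 and 3 and 1 without DOX-positive replicate 3, and 58 of all genes were called without DOX-negative replicate 3. At an unadjusted p under 0.05, 12 members were counted, 2 of them feedback targets, against 3597 of all 17026 genes. The median log2 fold change was 0.11 over the 45 members, 0.14 over the 7 feedback targets, 0.090 over the 38 tested core members and 0.00034 over all tested genes. The groups did not overlap in CPM for 20 of 45 members (44.4%), 14 of them higher and 6 lower with DOX, against 28.1% of all tested genes. Because the members were chosen with earlier results of these data known, their shares describe these genes only.

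**Figure D3:**
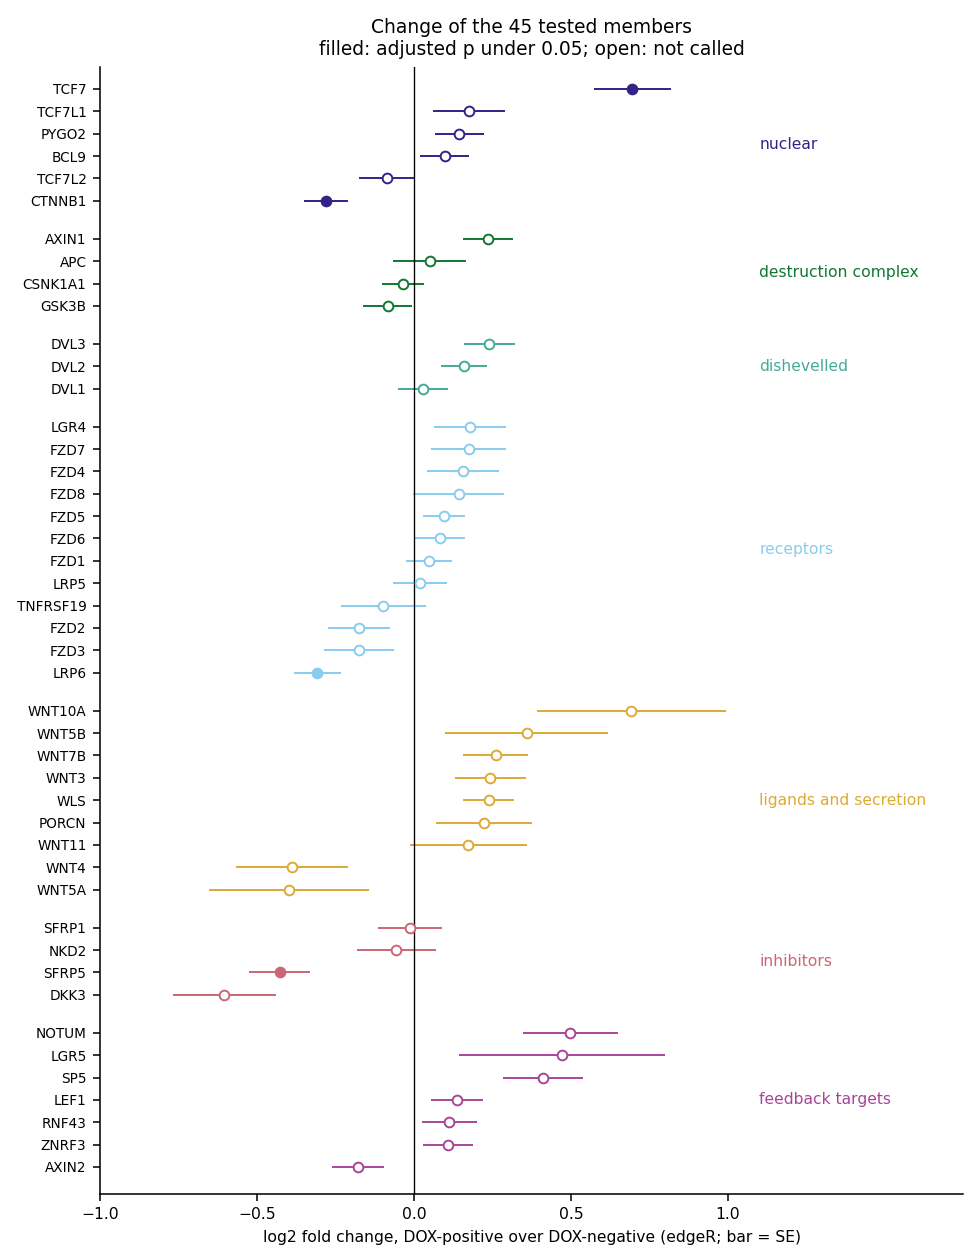
Log2 fold change (DOX-positive over DOX-negative; edgeR) of the 45 tested members by role, with SE as bars; filled points were called. TCF7 at 0.70 lies to the right, and CTNNB1, LRP6 and SFRP5, at -0.28, -0.31 and -0.43, lie to the left of zero.

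TCF7, which encodes the factor TCF1, was the nuclear component that rose. It was at 7.93, 7.76 and 6.43 CPM without DOX and 10.3, 13.3 and 12.4 CPM with DOX. The groups did not overlap, and the means of 7.37 ± 0.824 and 11.99 ± 1.52 CPM (SD, n = 3) gave a difference of 0.70 on the log2 scale (SE 0.12, adjusted p = 0.011). The TCF7 gene (GRCh38.p14, chromosome 5, 134108218 to 134148210, protein coding) overlaps VDAC1, a gene at 129 to 137 CPM whose log2 fold change was -0.03 (SE 0.068, adjusted p = 0.84). Without DOX-negative replicate 3, TCF7 was not called (0.60, adjusted p = 0.082).

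The other TCF/LEF factors did not pass the test. TCF7L1, mostly a repressor of Wnt targets, was at 13.0, 12.9 and 10.1 CPM without and 12.3, 14.2 and 14.2 CPM with DOX. These groups overlapped, and its log2 fold change was 0.17 (SE 0.11, adjusted p = 0.42). TCF7L2, which encodes TCF4, was at 18.7, 20.9 and 20.0 CPM without and 19.9, 18.9 and 17.4 CPM with DOX. Its groups overlapped as well (-0.085, SE 0.089, adjusted p = 0.64). The coactivator genes BCL9 and PYGO2 had log2 fold changes of 0.098 (adjusted p = 0.52) and 0.14 (adjusted p = 0.32). Neither passed the test, although their DOX-positive libraries all lay above the DOX-negative ones.

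CTNNB1 was at 556, 573 and 605 CPM without DOX and 487, 473 and 470 CPM with DOX. The means differed by 17.6%, and the 3 DOX-positive libraries lay close together below the lowest DOX-negative one. The decrease was near the threshold (log2 fold change -0.28, SE 0.070, adjusted p = 0.044). It was called without DOX-positive replicate 2, but not when any of the other 5 libraries was left out (adjusted p between 0.068 and 0.17). CTNNB1 lies on chromosome 3 (41199505 to 41240443) with no overlapping gene listed. In the destruction complex, 0 of 4 members were called. AXIN1 had a fold change of 0.24 on the log2 scale (SE 0.080, adjusted p = 0.11), and its 3 DOX-positive libraries, at 59.5 to 66.4 CPM, lay above the DOX-negative ones, at 48.96 to 54.6 CPM. APC, GSK3B and CSNK1A1, which has 3 listed pseudogenes that could share its reads, had log2 fold changes between -0.083 and 0.050 with overlapping groups.

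Of the 3 dishevelled genes, which relay the signal from the receptor, none was called. DVL3 was at 134 to 160 CPM without and 165 to 182 CPM with DOX, with 0.24 as its log2 fold change (SE 0.081, adjusted p = 0.11). DVL2 was at 138 to 152 and 159 to 173 CPM, with a log2 fold change of 0.16 (adjusted p = 0.24). The groups were apart for both, whereas those of DVL1 overlapped (log2 fold change 0.030).

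Among 12 receptor genes, LRP6, which encodes the co-receptor phosphorylated upon ligand binding, was the only one called. LRP6 was at 85.0, 85.9 and 90.6 CPM without DOX and 73.5, 66.1 and 71.7 CPM with DOX. No DOX-positive library reached the lowest DOX-negative one, and the log2 fold change was -0.31 (SE 0.074, adjusted p = 0.036). It was not called without any one of the 3 DOX-negative libraries or DOX-positive replicate 3 (adjusted p between 0.070 and 0.17). Its close relative LRP5 was at 45.5 to 49.8 CPM and 46.0 to 54.0 CPM, and its log2 fold change of 0.019 (SE 0.086, adjusted p = 0.93) changed sign in some alternatives. LRP6 (chromosome 12, 12116025 to 12267044) overlaps LOC101929053, MORF4L1P2, RNU6-545P and RPL21P100 in RefSeq, which were not analysed here. The difference between the changes of LRP6 and LRP5 was not tested. The 8 frizzled genes had log2 fold changes between -0.18 and 0.17, and 0 of them were called. FZD5 (0.096, adjusted p = 0.46) and FZD7 (0.17, adjusted p = 0.45) had groups that did not overlap, as did LGR4, a receptor for R-spondins (0.18, adjusted p = 0.40). TNFRSF19 was at 3.98 to 4.73 CPM without and 3.60 to 4.63 CPM with DOX.

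Ligand and secretion genes were at low levels, apart from WLS, and 0 of the 9 tested were called. Among the 9, 7 had positive log2 fold changes, with a median of 0.24. WLS was at 143 to 159 CPM without and 166 to 194 CPM with DOX (log2 fold change 0.24, SE 0.080, adjusted p = 0.11). WNT7B was at 12.5 to 15.7 CPM and 15.9 to 18.6 CPM (0.26, SE 0.10, adjusted p = 0.18), and WNT10A at 0.275 to 0.756 CPM and 0.860 to 0.949 CPM (0.69, SE 0.30, adjusted p = 0.21). These 3 were higher in every DOX-positive library. WNT4 was lower in every DOX-positive library, at 4.19 to 5.33 CPM against 2.54 to 4.06 CPM (-0.39, SE 0.18, adjusted p = 0.24). The groups of WNT3, WNT5A, WNT5B, WNT11 and the acyltransferase gene PORCN overlapped. WNT6, whose gene overlaps WNT10A, was not tested at a mean of 6.5 counts per library.

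Inhibitor genes made up the sole role in which every tested member had a negative log2 fold change (4 of 4, median -0.24). For SFRP1 and NKD2 that change was smaller than its SE. Over all tested genes, 8498 of 17026 had a negative one. Members that dampen the pathway but were placed in other roles went both ways. NOTUM (0.50), SP5 (0.41), AXIN1 (0.24), RNF43 (0.11), ZNRF3 (0.11) and APC (0.050) were positive, and AXIN2 (-0.18), GSK3B (-0.083) and CSNK1A1 (-0.034) negative. SFRP5 was at 111, 127 and 117 CPM without and 93.2, 96.1 and 75.2 CPM with DOX. The group means of 118.6 ± 8.24 and 88.2 ± 11.3 CPM (SD, n = 3) did not come from overlapping values, and the log2 fold change was -0.43 (SE 0.097, adjusted p = 0.029). The gene lies on chromosome 10 (97766751 to 97771999) with no overlapping gene listed. SFRP5 was not called without DOX-negative replicate 2 or 3 or DOX-positive replicate 3 (adjusted p = 0.14, 0.13 and 0.068). DKK3, a member of the Dickkopf family of secreted proteins, was at 2.02, 2.26 and 2.42 CPM without and 1.65, 1.51 and 1.23 CPM with DOX. It was lower in every DOX-positive library but did not pass the test (-0.60, SE 0.16, adjusted p = 0.058). Without DOX-positive replicate 1 it was called (-0.71, adjusted p = 0.048), as it was by DESeq2 (adjusted p = 0.047). SFRP1 (-0.013, SE 0.10) and NKD2 (-0.056, SE 0.13), which encodes a dishevelled antagonist, had overlapping groups. In TPM the SFRP1 means went the other way, at 3.46 without and 3.48 with DOX. DKK1, which blocks LRP5 and LRP6, had 0 counts in all 6 libraries, which allows up to 0.0397 to 0.0630 CPM per library by counting error. WIF1, which binds Wnt ligands, had 1 count in total.

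**Figure D4:**
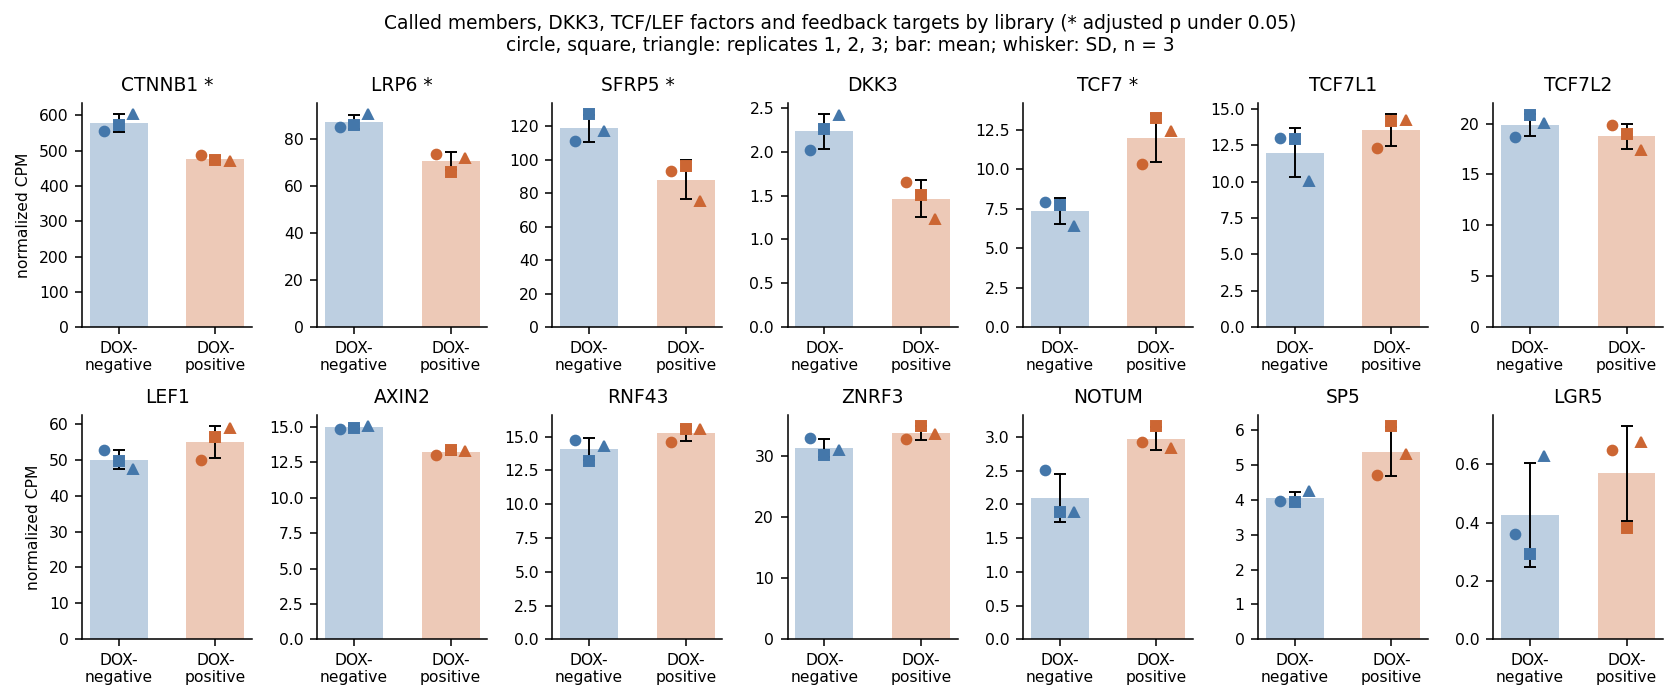
Normalized CPM by library for the 4 called members, DKK3, the TCF/LEF factors and the tested feedback targets (symbols, replicates; bars, means; whiskers, SD, n = 3; asterisks, called). AXIN2 is lower with DOX, and NOTUM and SP5 are higher, without overlap, although none of these passed the test.

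Of the 7 tested feedback targets, 6 had positive log2 fold changes and 1 a negative one, and none passed the test. AXIN2, the axin paralog that β-catenin induces, was at 14.9, 14.95 and 15.1 CPM without and 13.0, 13.4 and 13.3 CPM with DOX. The replicates lay close together and the groups did not overlap, yet the log2 fold change of -0.18 did not pass the test (SE 0.083, adjusted p = 0.24). NOTUM, which encodes a secreted esterase that removes the lipid of Wnt ligands, was at 2.50, 1.89 and 1.89 CPM without and 2.92, 3.16 and 2.83 CPM with DOX. NOTUM was thus above all DOX-negative values in each DOX-positive library (0.50, SE 0.15, adjusted p = 0.081). SP5, which encodes a zinc finger repressor of Wnt targets, was at 3.96, 3.93 and 4.24 CPM without and 4.71, 6.13 and 5.32 CPM with DOX. Its groups were also apart, and its log2 fold change was 0.41 (SE 0.13, adjusted p = 0.084). Without DOX-positive replicate 1, its lowest DOX-positive value, SP5 was called (0.50, adjusted p = 0.0499).

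LEF1 was at 52.8, 49.7 and 47.4 CPM without and 49.97, 56.2 and 58.7 CPM with DOX, and the groups overlapped (0.14, SE 0.084, adjusted p = 0.38). RNF43 and ZNRF3 encode membrane ubiquitin ligases that remove frizzled receptors. RNF43 was at 14.7, 13.2 and 14.3 CPM without and 14.6, 15.5 and 15.6 CPM with DOX (0.11, SE 0.088, adjusted p = 0.51). ZNRF3 was at 32.9, 30.1 and 31.0 CPM without and 32.8, 34.9 and 33.5 CPM with DOX (0.11, SE 0.079, adjusted p = 0.48). Both overlapped between groups. The antisense genes LEF1-AS1 and ZNRF3-AS1 were at 0.675 to 1.05 and 0.0727 to 0.238 CPM, and whether counting used the strand is not given in the sources used here. LGR5, the R-spondin receptor known as a stem cell marker, was at 0.360, 0.291 and 0.630 CPM without and 0.648, 0.382 and 0.678 CPM with DOX. At this low level the groups overlapped and the SE of 0.33 was large against the log2 fold change of 0.47 (adjusted p = 0.45). NKD1 was not tested at a mean of 3.83 counts per library.

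Promoter sequences were examined for the core letters bound by TCF/LEF factors. RefSeq promoters of GRCh38.p14, from 250 bases before to 50 bases after one transcript start per gene, were found for 35 of 49 members, including LEF1, RNF43 and SP5 of the feedback targets. The letters searched on both strands were CTTTG followed by any pair of the bases A and T, which makes 4 motifs of 7 bases. They were found in 3 of the 35 member promoters (8.57%), those of SP5, DKK1 and WNT3, against 13.9% of 27305 promoters and 10.96% of 15842 protein-coding promoters. Member promoters were rich in GC, with a median of 69.7% against 62.7% for protein-coding promoters. SP5 and DKK1 are shown because they held more than one match while one was transcribed and the other had 0 counts, and TCF7 because it was the called factor that rose. Each is printed 5′ to 3′, capitals mark the motifs, and TTCAAAG is CTTTGAA on the other strand.
SP5, chr2:170715087-170715386, plus strand: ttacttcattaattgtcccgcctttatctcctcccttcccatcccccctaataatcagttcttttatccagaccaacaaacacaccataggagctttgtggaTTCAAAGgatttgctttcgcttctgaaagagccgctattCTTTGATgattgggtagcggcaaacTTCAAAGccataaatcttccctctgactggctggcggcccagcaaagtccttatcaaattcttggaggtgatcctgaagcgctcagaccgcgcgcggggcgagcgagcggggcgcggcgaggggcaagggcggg
DKK1, chr10:52314031-52314330, plus strand: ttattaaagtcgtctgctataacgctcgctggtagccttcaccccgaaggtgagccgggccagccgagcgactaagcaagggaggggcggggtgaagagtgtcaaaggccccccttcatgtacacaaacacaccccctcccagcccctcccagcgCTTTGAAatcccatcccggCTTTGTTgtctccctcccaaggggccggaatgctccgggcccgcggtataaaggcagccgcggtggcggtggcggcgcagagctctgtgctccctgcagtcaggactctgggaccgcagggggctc
TCF7, chr5:134115363-134115662, plus strand: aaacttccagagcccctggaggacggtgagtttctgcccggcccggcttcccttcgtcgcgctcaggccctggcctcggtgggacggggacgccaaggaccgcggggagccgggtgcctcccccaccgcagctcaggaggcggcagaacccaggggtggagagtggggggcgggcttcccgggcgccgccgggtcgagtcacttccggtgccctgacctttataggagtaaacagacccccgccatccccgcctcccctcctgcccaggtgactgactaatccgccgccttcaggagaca
SP5 held 3 matches, which begin 148, 109 and 84 bases before the start, and DKK1 held 2, at 95 and 76 bases before it. The WNT3 match lay 20 bases after the start. The TCF7 window, which lies inside the gene as listed above rather than at its outermost start, held none of these letters. A match describes the letters and does not show binding.

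Genes of the pathway beyond the members were then examined on lists of 106 genes, of which 86 were tested. Of these 86, 7 (8.14%) were called, 3 higher and 4 lower. Over all tested genes, 4.87% were called, 2.91% higher and 1.96% lower. The lists were written by hand with earlier results of these data known, so their shares describe the listed genes only. The median log2 fold change of the 86 was 0.0078. Among 9 tested receptors and R-spondins, ROR1, a receptor for WNT5A, was the only one called. ROR1 was at 2.50, 2.55 and 2.23 CPM without and 3.47, 3.87 and 4.50 CPM with DOX (0.70, SE 0.14, adjusted p = 0.019). RSPO4 supplied 96.3 ± 0.492% of R-spondin TPM without DOX, and LGR6 supplied 80.9 ± 0.871% of the LGR receptors that bind them, so that LGR4 and LGR5 were the smaller components. A further list mixed secreted or membrane inhibitors with the glypican genes GPC4 and GPC6, so its counts do not describe inhibitors alone. Of 7 tested genes on it, 6 had negative log2 fold changes, both glypican genes among them. The only one called was GPC4, which encodes a glypican at the cell surface. It fell from 95.7 ± 7.81 to 71.4 ± 9.22 CPM (-0.42, SE 0.099, adjusted p = 0.033). One of 17 tested cytoplasmic regulators was called, namely CXXC4, a dishevelled-binding inhibitor (-0.42, SE 0.11, adjusted p = 0.045). One of 15 nuclear factors was called, the Groucho corepressor gene TLE3, which fell from 242.4 ± 6.85 to 199.5 ± 10.4 CPM (-0.28, SE 0.071, adjusted p = 0.043). None of these 4 genes was called without DOX-negative replicate 2 or 3 or DOX-positive replicate 3. GPC4 and CXXC4 were also not called without DOX-positive replicate 2, nor was TLE3 without DOX-negative or DOX-positive replicate 1 (adjusted p between 0.056 and 0.21 in all these fits). Of 6 tested Wnt ligands and 13 planar polarity genes, 0 were called, with 2 and 0 at an unadjusted p under 0.05. Over all 17026 tested genes, 3597 were under that unadjusted p.

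On the list of other β-catenin target genes, 3 of 19 tested (15.8%) were called, against 4.87% of all tested genes. This list too was written with earlier results of these data known. Its share therefore cannot be read as a result about β-catenin targets in general. MYC, a growth-promoting transcription factor, rose, with values of 22.7, 20.5 and 17.7 CPM without and 28.5, 34.4 and 37.5 CPM with DOX (0.72, SE 0.12, adjusted p = 0.0091). FOSL1, an AP-1 subunit, rose by 1.62 on the log2 scale (SE 0.36, adjusted p = 0.028) on 15, 10 and 3 counts without and 33, 28 and 40 counts with DOX. PROX1, a homeobox factor, fell from 76.7 ± 6.10 to 53.5 ± 6.52 CPM (-0.52, SE 0.097, adjusted p = 0.014). MYC was not called without DOX-negative replicate 3 (adjusted p = 0.080), nor PROX1 without DOX-negative replicate 2 or 3 (0.076 and 0.096). FOSL1 was not called without DOX-negative or DOX-positive replicate 2 or 3 (adjusted p between 0.057 and 0.11). CCND1 was at 0.219 to 0.372 CPM without and 0.236 to 0.597 CPM with DOX, and ASCL2 had 0 counts in all libraries.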

How the data were processed

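H660 cells were cultured in 3 replicates per group, and the titles gave the group and number of each. Per the labels, a stranded mRNA kit was used, and STAR, DESeq2 and GRCh38 were named in the submitters' processing notes; versions, annotation and strand setting are not given in the sources used here. Raw counts for each symbol were deposited together with TPM, in which the authors accounted for gene length and library total. Members and lists were chosen with earlier results of these data known.

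Counts were filtered with filterByExpr, scaled with TMM factors (0.967 to 1.03) and tested with edgeR 4.0.16 (R 4.3.3; glmQLFit robust, glmQLFTest) over 17026 genes with Benjamini-Hochberg adjustment; genes were called at an adjusted p under 0.05. Adjusted p values are from edgeR unless another tool or fit is named. P values set the difference between groups against the spread between these cultures. Whether the cultures were independent experiments is not given in the sources used here. CPM use TMM factors; SE derive from F; shares use TPM. The code was tested on simulated data. Full statistics were given for called members, tested feedback targets and TCF/LEF factors. Other members whose groups did not overlap were given by their changes, with ranges except for BCL9, PYGO2, FZD5, FZD7 and LGR4. Giving DKK3 also by library was a choice made after its values were seen, as was giving LRP5. Up to 4 called genes were given for each further list. WNT9A, RSPO4, LGR6, CCND1 and ASCL2 were named after their values were seen. Locations, overlaps and promoters came from RefSeq (GRCh38.p14). Alternatives were RLE or no scaling, no filter or at least 50 mean counts, DESeq2 1.42.0, limma-voom and limma-trend on log2 TPM (limma 3.58.1), a replicate block, each library left out and, chosen after seeing the data, GC and length trend offsets.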

Additional observations from a re-analysis of the deposited data

How the results depend on the processing

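Members called numbered 4, all core, and differed by over 1.5 times under some of the 17 alternatives. There were 2 without scaling factors, 0 in each of the limma-trend fits on log2(TPM + 1) or log2(TPM + 0.1) restricted to a mean of 1 TPM or more and on log2(TPM + 1) with no filter (1, 1 and 4 members at an unadjusted p under 0.05; 30, 35 and 0 of all genes called), and 8 with GC and length trends removed, when AXIN1, DKK3, DVL3 and WLS were added and 2105 of all genes were called. DESeq2 called 1355 genes. Leaving out 1 library gave 0 to 5 members, 0 to 4 core members, 0 to 1 feedback targets and 0 to 7 other pathway genes, with 58 to 1035 of all genes called. Other pathway genes called were 7, against 12 with DESeq2, 0 in the 3 TPM fits and 15 with the trends removed. CTNNB1 (-0.28) was not called without scaling factors (-0.29, adjusted p = 0.053), in the TPM fits (-0.25 in each, adjusted p = 1.0) or with the replicate block (-0.28, adjusted p = 0.060), and leaving out 1 library gave -0.30 to -0.25. MUC1 was not called in the unfiltered TPM fit (-1.22, adjusted p = 0.29). TCF7 was 0.38 on log2(TPM + 1), a scale that understates low genes. With the replicate number as a block, 3 members, 0 feedback targets, 3 core members, 10 other pathway genes and 998 of all genes were called, and the MUC1 value was -1.32. Deviations from the group means in same-numbered libraries had correlations of -0.56, 0.022 and -0.077 over 14587 genes. With 3 libraries per group, these values cannot show whether same-numbered cultures were paired. Pairing is not given in the sources used here. Across 35 genes carried through the alternatives, LRP5, near zero throughout, was reversed without DOX-negative replicate 3 (-0.027) or DOX-positive replicate 2 (-0.056; -0.056 to 0.062 with 1 library left out) and with the trends removed (-0.035), and the others kept their direction in each alternative that could test them. DKK3 was called with no count filter (-0.60, adjusted p = 0.043), by DESeq2, without DOX-positive replicate 1 and with the trends removed. The causes were not tested. Counts were low for LGR5, FOSL1, NKD1, WNT6 and WIF1. With 3 libraries per group and a median SE of 0.10, small changes could not be shown.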
